A study of Homo sapiens with 4 samples.

Results

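The circadian clock genes described here are the activators CLOCK and ARNTL, the repressors PER1, PER2, CRY1, CRY2, NR1D1 and NR1D2, and the output factors DBP and TEF. They were taken from the deposited table by gene name. Of the 10 genes, 9 had a row and ARNTL had none, so these are 9 of 11213 genes and 12 of 32551 transcripts listed. The 10 names were chosen by gene family with measured TPM differences of the same comparison already known, so their differences between the groups are given as descriptions. The standard errors and 95% intervals beside them come from a fit across all genes and show precision only, and no call on a member is drawn from them. All libraries were made from total RNA of K562, a human chronic myelogenous leukaemia line with erythroid features that carries the BCR-ABL1 fusion. The 2 shPHF8 libraries came from cells transduced with a lentiviral hairpin against PHF8 and selected with puromycin, and the 2 shControl libraries from cells treated likewise with a control hairpin. PHF8 is a histone demethylase, and the series asks how its knockdown acts on transcription, that of BCR-ABL1 above all. The labels do not say whether the 2 libraries of a group came from separate cultures or, for shPHF8, from the same hairpin, so the spread between them may be technical.

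In the mammalian clock, CLOCK and the product of ARNTL (BMAL1) bind E-boxes as a pair and switch on the PER, CRY and NR1D genes. PER and CRY proteins then repress that pair, and the nuclear receptors NR1D1 and NR1D2 (REV-ERB alpha and beta) repress ARNTL and other genes through ROR elements. DBP and TEF are transcription factors of the PAR bZIP family, which activate genes through D-boxes, and DBP is itself a direct CLOCK-BMAL1 target. The labels name no step that sets the cells to a common phase and no time of harvest, and each library averages over its cells.

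Promoters are shown, because the loop acts through motifs of this kind, for the members whose RefSeq gene start lies close to the start of a listed transcript and whose window holds a clock motif. RefSeq windows on GRCh38.p14, from 250 bases before to 50 bases after a gene start, were found for all 10 members, 15 windows in all. They were searched on both strands for the E-box CACGTG, the E'-box CACGTT, the D-box TTATGTAA or TTACGTAA, and the core of the ROR element, TAGGTCA. No 2 matches overlapped. Matches are in capitals.
PER1 (chr17:8152355-8152654, minus strand): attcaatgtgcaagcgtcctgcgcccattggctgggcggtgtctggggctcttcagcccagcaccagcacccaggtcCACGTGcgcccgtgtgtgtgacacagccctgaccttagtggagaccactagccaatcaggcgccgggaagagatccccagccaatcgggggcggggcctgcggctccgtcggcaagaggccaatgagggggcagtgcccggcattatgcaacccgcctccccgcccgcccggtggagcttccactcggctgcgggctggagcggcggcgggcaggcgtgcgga
PER2 (chr2:238288561-238288860, minus strand): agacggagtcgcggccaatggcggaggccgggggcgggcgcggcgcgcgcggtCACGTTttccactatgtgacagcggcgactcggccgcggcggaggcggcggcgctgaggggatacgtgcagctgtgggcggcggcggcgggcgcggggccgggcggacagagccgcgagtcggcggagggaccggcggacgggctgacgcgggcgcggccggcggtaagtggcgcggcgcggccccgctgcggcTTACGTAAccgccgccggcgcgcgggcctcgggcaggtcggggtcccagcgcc
CRY2 (chr11:45847225-45847524, plus strand): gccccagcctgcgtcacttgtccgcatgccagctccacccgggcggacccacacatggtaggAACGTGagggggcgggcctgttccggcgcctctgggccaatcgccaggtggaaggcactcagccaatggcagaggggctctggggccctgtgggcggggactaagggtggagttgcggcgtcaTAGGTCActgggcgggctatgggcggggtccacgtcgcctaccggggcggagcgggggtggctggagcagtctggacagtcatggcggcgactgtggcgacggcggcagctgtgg
NR1D1 (chr17:40100540-40100839, minus strand): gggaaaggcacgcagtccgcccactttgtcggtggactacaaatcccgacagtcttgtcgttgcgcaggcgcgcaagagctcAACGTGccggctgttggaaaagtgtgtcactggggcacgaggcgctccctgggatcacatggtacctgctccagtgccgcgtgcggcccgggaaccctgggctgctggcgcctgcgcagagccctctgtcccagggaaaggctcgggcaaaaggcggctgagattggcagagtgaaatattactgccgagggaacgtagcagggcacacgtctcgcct
TEF (chr22:41381692-41381991, plus strand): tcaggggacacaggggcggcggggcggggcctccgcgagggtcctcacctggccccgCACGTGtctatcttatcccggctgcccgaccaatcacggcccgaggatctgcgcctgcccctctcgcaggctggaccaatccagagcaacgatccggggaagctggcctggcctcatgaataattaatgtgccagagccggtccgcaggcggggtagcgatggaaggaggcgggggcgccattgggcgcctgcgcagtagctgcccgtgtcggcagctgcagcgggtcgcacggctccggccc
The E-box of PER1 begins 173 bases before the gene start and that of TEF 193 bases before it. PER2 has an E'-box 197 bases before the start and a D-box that begins 3 bases before it. CRY2 has an E'-box 188 bases before and a ROR core 65 bases before the start, and NR1D1 an E'-box 168 bases before it. Of the other members, CRY1 has an E'-box 89 bases before its start. In NR1D2 and CLOCK the matches lie only in windows 861 and 1206 bases away from the nearest listed transcript start, with a D-box and 2 E-boxes in NR1D2 and an E'-box in CLOCK. ARNTL has a ROR core that begins at base 31, with the gene start counted as base 1. The window of DBP holds none of the 4 motifs. It lies 2853 bases away from the start of the only listed DBP transcript, and the bases around that start were not searched. Among all 35116 windows, 7.26% hold the E-box, 5.34% the E'-box, 1.01% a D-box and 1.85% the ROR core, and a match is only a match of letters. The files are on hg19, and these coordinates were not converted.

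The targeted gene was low in the libraries labelled shPHF8. PHF8 was at 6.06 and 6.42 TPM in the shPHF8 libraries, against 25.9 and 22.5 TPM in the shControl libraries. TPM are transcript abundances per length, scaled to the same total in each library, so the number of reads and the counting error are unknown. Values were summed per gene and compared on the log2(TPM + 1) scale with limma, shPHF8 minus shControl, with the standard error (SE) of the fit. On this scale the change of genes with low TPM is understated. The fit held 10972 genes whose mean TPM was 1 or more, all 9 listed clock genes among them, and no gene passed limma with Benjamini-Hochberg adjustment at 0.05 in either direction (0.0% called). Before adjustment, limma gave p under 0.05 for 1086 higher (9.9%) and 1328 lower genes (12.1%), 22.0% in all; these 2414 genes became 1578 without shPHF8 replicate 1 and 1495 without shPHF8 replicate 2. The smallest two-sided p of an exact permutation test of 2 libraries against 2 is 0.333. The libraries of 1 group differed by more than 2-fold in 5.48% of genes for shPHF8 and 5.93% for shControl. The K562 identity was checked against 8 erythroid markers, all of which were listed, with a summed level of 10179 to 10820 TPM in shPHF8 and 7077 to 7488 TPM in shControl libraries.

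Among the clock genes, DBP had the widest gap between the groups on the log2(TPM + 1) scale, and CRY2 followed. The shPHF8 values lay below both shControl values in 5 of 9 genes (DBP, TEF, CLOCK, PER1 and CRY2), where 29.3% of all genes tested did so. They lay above in 2 (NR1D1 and NR1D2), where 26.0% of all genes did, and they overlapped in PER2 and CRY1; groups without overlap made up 55.3% of all genes. On this log2(TPM + 1) scale only DBP also passed 1.5-fold (8.98% of all genes lower and 6.28% higher by that rule, 15.3% together). DBP was listed at 0 in both shPHF8 libraries, so the size of its difference is set by the value added to TPM. TEF was at -0.55 on this scale and at -0.96, past 1.5-fold, with a pseudocount of 0.1. Both reached the mean TPM of 1 only through their shControl values. The median log2 fold change was -0.24 over the 9 genes and -0.02 over all genes tested. As the names were chosen with this comparison known, nothing is read from these counts. In order of level, CRY1 stood apart at 51.9 to 62.2 TPM over the 4 libraries. CLOCK, CRY2, NR1D2 and PER1 followed with ranges that overlapped from each gene to the next, between 9.60 and 19.4 TPM. NR1D1 and PER2 overlapped at 6.15 to 8.30 TPM, and DBP and TEF were lowest. The mean level of CRY1 exceeded that of 69.9% of all genes listed, and that of TEF 2.76%.

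**Figure D1:**
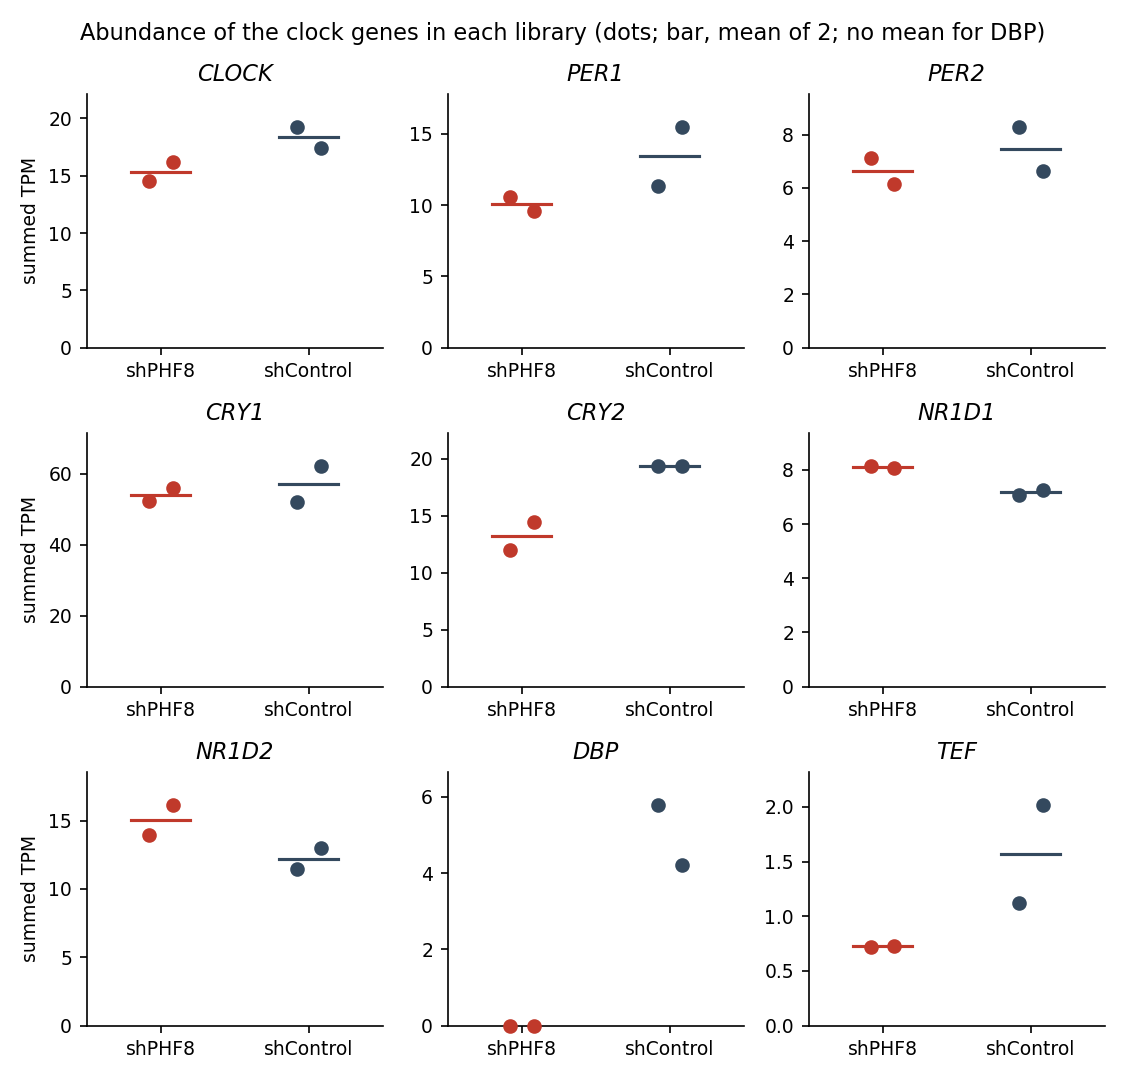
Summed TPM of the 9 listed clock genes (vertical axes, each from 0), with the 2 shPHF8 libraries on the left and the 2 shControl libraries on the right of each panel. Dots are libraries and bars are means of 2, with none drawn for DBP. DBP is listed at 0 in both shPHF8 libraries, and the dots of PER2 and of CRY1 overlap between the groups.

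Among the activators, CLOCK, a histone acetyltransferase and partner of BMAL1, was at 14.5 and 16.2 TPM in shPHF8 libraries, against 19.3 and 17.4 TPM in shControl libraries. Both shPHF8 values were below both shControl values, but the gap between the groups was smaller than the difference between the shControl libraries. The log2 fold change was -0.24 ± 0.15 (SE) and had a 95% interval from -0.64 to 0.16. The 2 listed isoforms encode the same protein from starts 37111 bases apart. CLOCK-201 was at 14.5 and 14.1 TPM in shPHF8, against 17.3 and 15.5 TPM in shControl libraries. CLOCK-211 was listed at 0 in shPHF8 replicate 1 and was at 2.08 TPM in shPHF8 replicate 2, against 1.96 and 1.99 TPM in shControl libraries. So the lowest CLOCK sum is that of the library in which the minor isoform was listed at 0. CLOCK shares 76 exon bases with TMEM165 on the opposite strand, and the strandedness of the libraries is not given in the sources used here. TMEM165 was at 74.8 and 89.7 TPM in shPHF8, against 124.7 and 112.8 TPM in shControl libraries, and reads of the shared bases cannot be told apart. ARNTL, which encodes the CLOCK partner BMAL1, and NPAS2 and ARNTL2, the paralogues of CLOCK and ARNTL, had no row and were not analysed here.

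Of the period genes, PER1 did not overlap between the groups and PER2 did. PER1, an early-induced repressor that responds to CREB signalling, was at 10.6 and 9.60 TPM in shPHF8 libraries, against 11.4 and 15.5 TPM in shControl libraries. The shControl libraries differed from each other by more than the gap between the groups, and shControl replicate 2 was the highest. The log2 fold change was -0.37 ± 0.21 (SE), with a 95% interval from -0.94 to 0.21. PER2, the repressor whose window holds the letters of a D-box at the gene start, was at 7.13 and 6.15 TPM in shPHF8, against 8.30 and 6.63 TPM in shControl libraries. These values overlapped, with a log2 fold change of -0.14 ± 0.21 (SE) and a 95% interval from -0.72 to 0.43. The ratio of PER1 to PER2 was 1.48 and 1.56 in shPHF8, against 1.37 and 2.34 in shControl libraries, and it overlapped too.

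The cryptochromes, which hold CLOCK-BMAL1 in check as partners of the PER proteins, overlapped between the groups for CRY1 and did not for CRY2; the difference between their fold changes was not tested. CRY1 was at 52.3 and 55.8 TPM in shPHF8 libraries, against 51.9 and 62.2 TPM in shControl libraries. The shPHF8 values lay between the shControl values, with a log2 fold change of -0.07 ± 0.13 (SE) and a 95% interval from -0.43 to 0.29. CRY2 was at 12.0 and 14.5 TPM in shPHF8 libraries, against 19.35 and 19.41 TPM in shControl libraries. The groups did not overlap, and the gap on the log2 scale, 0.39, was wider than the 0.25 between the shPHF8 libraries. The log2 fold change was -0.52 ± 0.16 (SE) and had a 95% interval from -0.96 to -0.09. Among all genes, 13.7% were lower with a gap wider than the spread within either group (25.7% in either direction), and of the clock genes DBP and CRY2 were. The ratio of CRY1 to CRY2 was 4.37 and 3.86 in shPHF8 libraries, against 2.68 and 3.21 in shControl libraries, without overlap.

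Each cryptochrome gene had 2 isoforms listed. CRY2-212, the main CRY2 isoform, was at 9.58 and 13.3 TPM in shPHF8, against 19.1 and 19.3 TPM in shControl libraries. CRY2-202 was at 2.40 and 1.21 TPM in shPHF8, against 0.248 and 0.141 TPM in shControl libraries, or 20.0% and 8.39% of the gene against 1.28% and 0.728%. The annotated sequences of the 2 isoforms differ by 1 base in 4204, so the split between them is uncertain, and the sum is the measure to read. CRY1-203, a 621-base transcript that shares 321 bases with the main CRY1-201, was at 1.45 and 3.22 TPM in shPHF8, against 0.970 and 1.13 TPM in shControl libraries. It made up 2.77% and 5.77% of CRY1 in shPHF8, against 1.87% and 1.82% in shControl libraries, so the CRY1 sum is nearly that of CRY1-201 in every library.

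**Figure D2:**
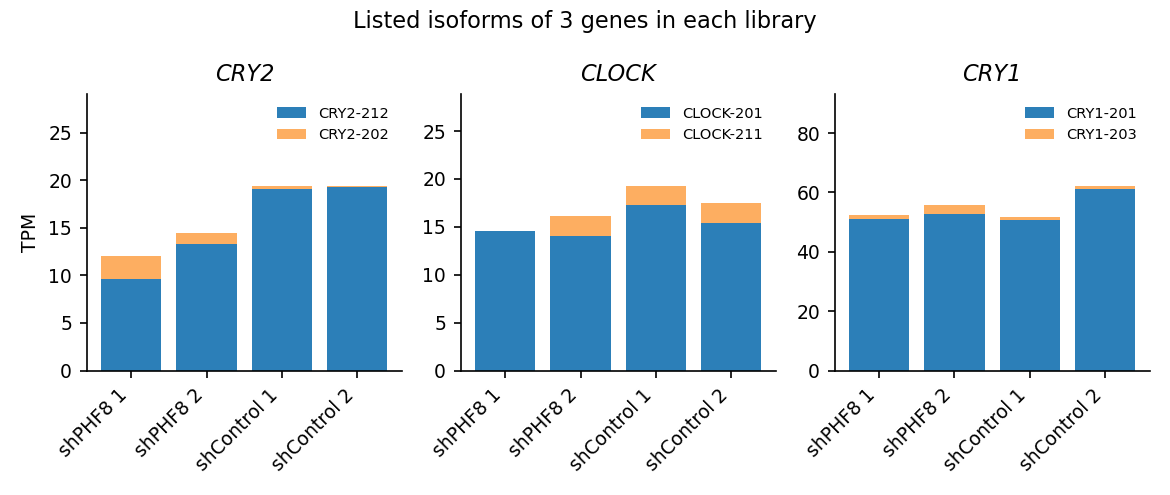
TPM (vertical axes, from 0) of the 2 listed isoforms of CRY2, CLOCK and CRY1, stacked for each library on the horizontal axis. The CRY2 stacks of shPHF8 libraries reach 12.0 and 14.5 TPM and those of shControl libraries 19.4 TPM, and CLOCK-211 is missing from the stack of shPHF8 replicate 1.

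The REV-ERB receptors, repressors of ARNTL, were the only members of the group with higher values in both shPHF8 libraries. NR1D1 was at 8.15 and 8.05 TPM in shPHF8 libraries, against 7.09 and 7.27 TPM in shControl libraries. The libraries of each group were close to each other, and the log2 fold change was small, at 0.16 ± 0.17 (SE), with a 95% interval from -0.31 to 0.62. Among all genes, 12.0% were higher with a gap wider than the spread within either group, and NR1D1 was so among the clock genes. NR1D2 was at 13.9 and 16.2 TPM in shPHF8, against 11.4 and 13.0 TPM in shControl libraries. Here the gap was smaller than the spread within either group, with a log2 fold change of 0.28 ± 0.17 (SE) and a 95% interval from -0.17 to 0.73. The ratio of NR1D2 to NR1D1 was 1.71 and 2.01 in shPHF8, against 1.61 and 1.79 in shControl libraries, and overlapped. NR1D1 shares 263 of its 2772 transcript bases with listed transcripts of THRA, a thyroid hormone receptor gene on the opposite strand, and reads of these bases cannot be told apart. THRA was at 21.6 and 21.5 TPM in shPHF8, against 22.5 and 21.9 TPM in shControl libraries.

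**Figure D3:**
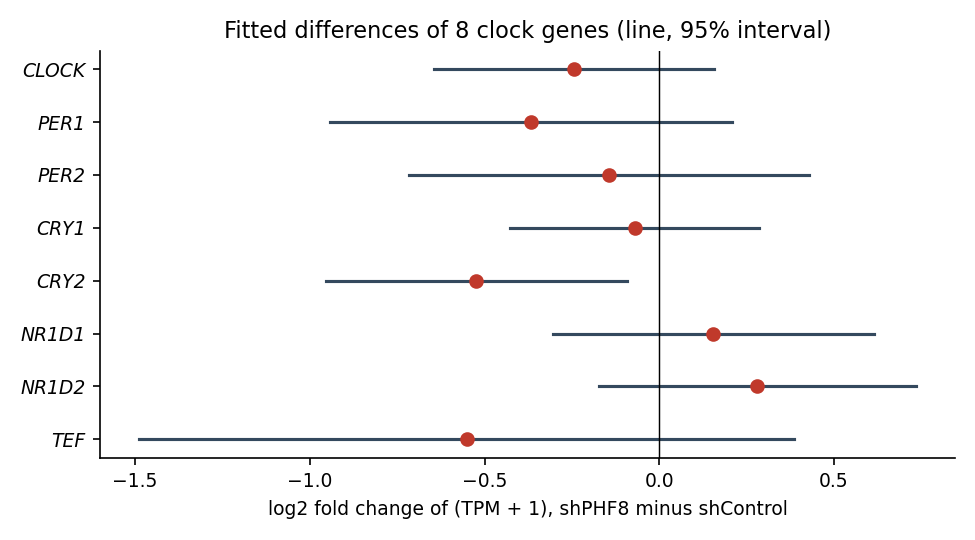
Log2 fold change of (TPM + 1), shPHF8 minus shControl (horizontal axis), for 8 clock genes (vertical axis); dots are estimates and lines 95% intervals from the limma fit across all genes. DBP is left out because it is listed at 0 in both shPHF8 libraries. The estimates run from -0.55 for TEF and -0.52 for CRY2 to 0.28 for NR1D2.

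DBP, the output factor under direct control of CLOCK-BMAL1, was listed at 0 in both shPHF8 libraries and was at 5.79 and 4.20 TPM in the shControl libraries. The groups did not overlap, and no fold change is given against a group listed at 0. The value rests on 1 short isoform, DBP-202 (named DBP-005 in the file), and the principal isoform DBP-201 was not analysed here. DBP-202 starts 2912 bases downstream of DBP-201, has 3 exons and 712 bases, and shares 534 of them with the 2229 bases of DBP-201. Its start codon lies in exon 3 of DBP-201, in the same frame, after 202 of the 325 codons of the long form, so it would encode the last 123. Coding begins as follows on GRCh38 (chr19:48633540-48633599, minus strand), with the start codon in capitals; it is shown because the listed form begins there and the same letters lie inside the long form.
DBP-202: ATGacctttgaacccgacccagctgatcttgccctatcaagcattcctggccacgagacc
Reads from these shared bases can come from either isoform, so a 0 for DBP-202 is not a 0 for the gene.

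**Figure D4:**
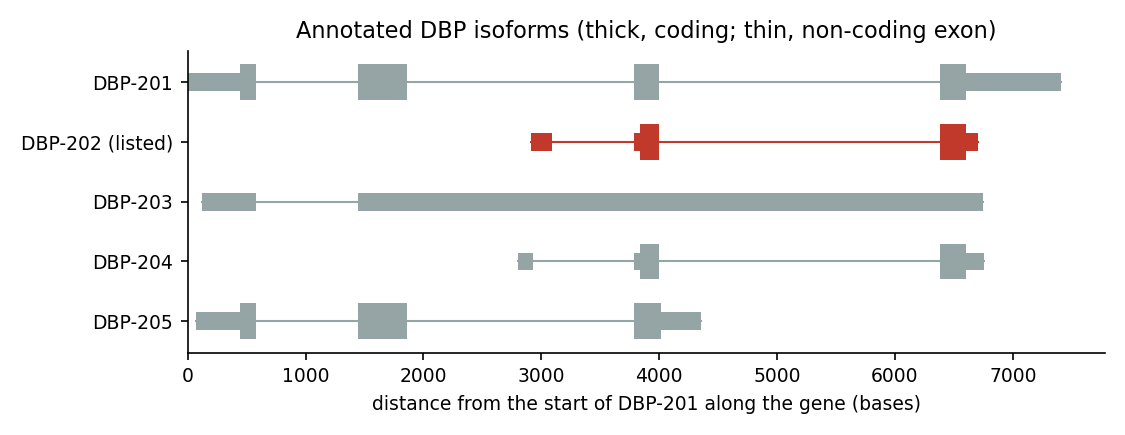
Annotated DBP isoforms (vertical axis) by distance from the start of DBP-201 in bases (horizontal axis); thick boxes are coding, thin boxes non-coding exons, and the red isoform is the listed one. DBP-202 begins 2912 bases from the start of DBP-201 and lacks its first coding exons.

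Values at 0 are frequent in this table, also between libraries of the same group. Of all transcripts listed, 536 were at 4 TPM or more in shControl replicate 1 and at 0 in shControl replicate 2, and 637 the other way round. Between the shPHF8 libraries these numbers were 589 and 532. Between a shPHF8 and a shControl library they ran from 528 to 644. Among the 3464 genes with 1 transcript listed, such a drop was rarer, with 15 and 16 genes between the shControl libraries and 10 and 9 between the shPHF8 libraries. Without a limit of 4 TPM, 25 of all 11213 genes were at 0 in both shPHF8 and above 0 in both shControl libraries. The reverse was seen in 17 genes. The limit of 4 TPM lies just under the lower shControl value of DBP, 4.20 TPM, so nothing is read from DBP meeting it. The DBP pattern, at least 4 TPM in both shControl and 0 in both shPHF8 libraries, was seen in 3 of the genes with 1 transcript, DBP among them, and the reverse pattern in 1. The other 2, named here after their values were seen, were CLC, a granule protein gene of eosinophils and basophils, and PRF1, the perforin gene of cytotoxic lymphocytes. CLC was at 6.36 and 5.99 TPM and PRF1 at 4.27 and 6.79 TPM in the shControl libraries. RAB26, a vesicle GTPase gene also named after its values were seen, had the reverse pattern, at 4.19 and 4.64 TPM in the shPHF8 libraries.

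The summed markers of other cell types were also lower in the shPHF8 libraries. The 4 of 8 granulocyte and monocyte markers that were listed summed to 77.9 to 82.5 TPM in shPHF8, against 140.9 to 159.1 TPM in shControl libraries. The 2 of 6 lymphocyte markers listed summed to 11.0 to 15.6 TPM in shPHF8, against 30.4 to 34.4 TPM in shControl libraries. Of 6 stromal and endothelial markers 2 were listed, with sums of 2.52 to 3.42 TPM in shPHF8, against 9.88 to 13.0 TPM in shControl libraries. That sum follows COL1A2, at 1.79 and 1.65 TPM in shPHF8, against 9.37 and 11.6 TPM in shControl libraries. COL1A1 overlapped, at 1.63 and 0.866 TPM in shPHF8, against 0.505 and 1.42 TPM in shControl libraries. The defining markers MPO, ELANE, CD14, CSF1R, CD3E, CD79A, MS4A1, CD2, PECAM1, VWF, CDH5 and PDGFRB had no row. The part of these differences in the values of DBP, TEF or CRY2 was not tested, and in bulk RNA fewer cells of a type and less RNA per cell cannot be told apart.

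TEF, the second PAR bZIP factor, was at the limit of what was tested. It was at 0.723 and 0.730 TPM in shPHF8 libraries, against 1.12 and 2.02 TPM in shControl libraries. The groups did not overlap, but the shControl libraries differed from each other by more than the gap between the groups. The log2 fold change was -0.55 ± 0.34 (SE) and had a 95% interval from -1.49 to 0.39, and it was -0.96 with a pseudocount of 0.1 and -0.29 without shControl replicate 2. HLF, the other member of the family, had no row. NFIL3, a repressor that binds the same D-boxes, was at 36.9 and 40.3 TPM in shPHF8, against 36.3 and 32.0 TPM in shControl libraries, with a log2 fold change of 0.17 ± 0.13 (SE).

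The 5 genes nearest to DBP in their pattern were found by the distance between profiles of log2(TPM + 1) over the 4 libraries, each centred on its mean. They were TPM4, a tropomyosin gene, at a distance of 0.11, MRM2, a mitochondrial rRNA methyltransferase, at 0.14, AGER, a cell surface receptor, at 0.18, FCGR1B, an Fc receptor gene, at 0.19, and FYB, an adaptor protein of T cells and myeloid cells, at 0.21. TPM4 was at 29.8 and 32.2 TPM in shPHF8, against 211.6 and 174.7 TPM in shControl libraries. MRM2 was at 0.0712 and 0.113 TPM in shPHF8, against 6.34 and 5.33 TPM in shControl libraries. AGER was at 0.434 and 0.486 TPM in shPHF8, against 7.57 and 6.31 TPM in shControl libraries. FYB was at 4.16 and 3.46 TPM in shPHF8, against 35.2 and 26.3 TPM in shControl libraries. In none of the 5 genes did the groups overlap, which follows from their choice by nearness to DBP. FCGR1B was at 1.35 and 1.25 TPM in shPHF8, against 12.6 and 11.2 TPM in shControl libraries, and its near-identical copies make its value uncertain. With 4 libraries in 2 groups, such a match holds little more than a difference of like size between the groups. It also depends on the 1 added to TPM, as DBP is listed at 0 in both shPHF8 libraries. With 1 added, the log2 fold changes of the 5 ran from -2.71 (FYB) to -2.44 (AGER). With 0.1 added they ran from -4.95 (MRM2) to -2.63 (TPM4), and nearest genes were not sought on that scale.

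Beyond these genes, 42 others of the clock were listed by role: paralogues and further repressors of the loop, D-box factors, the ROR activators, kinases and ubiquitin enzymes that act on clock proteins, their cofactors, and output genes. Of these, 33 were tested. None passed limma with Benjamini-Hochberg adjustment over all genes (0 higher and 0 lower, with adjusted p from 0.103 to 0.967). At an unadjusted limma p under 0.05, 4 were higher, where 9.9% of all genes were, and 2 were lower, where 12.1% of all genes were. Past 1.5-fold with groups that did not overlap were 2 higher (HDAC3 and CDKN1A) and 1 lower (USP2), 3 in all, where 6.28% of all genes were higher, 8.98% lower and 15.3% either. Without shPHF8 replicate 2, 6 of the 33 and 2092 of all 10972 genes passed. The median log2 fold change over the 33 was 0.02.

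Among the loop components, 3 of 7 were tested. PER3, the third period gene, was at 8.39 and 7.84 TPM in shPHF8, against 7.39 and 7.14 TPM in shControl libraries, and so lay near PER2 in level. BHLHE40 (DEC1), an E-box repressor, was at 74.8 and 72.5 TPM in shPHF8, against 70.7 and 90.4 TPM in shControl libraries. TIMELESS, which in mammals serves the replication fork, was at 64.8 and 83.8 TPM in shPHF8, against 69.2 and 63.2 TPM in shControl libraries. BHLHE40 and TIMELESS overlapped between the groups. The ROR activators RORA and RORB, which oppose the REV-ERB receptors, had no row.

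Of 15 kinases and ubiquitin enzymes, 13 were tested, and USP2 had the smallest p. USP2, a deubiquitinase with rhythmic transcripts in mouse tissues, was at 10.4 and 10.5 TPM in shPHF8 libraries, against 18.2 and 22.7 TPM in shControl libraries. The groups were apart by more than the spread within either, with a log2 fold change of -0.89 ± 0.17 (SE) and a limma Benjamini-Hochberg adjusted p of 0.107. PRKAA1, a catalytic subunit of the kinase AMPK that marks CRY1 for degradation in mouse cells, was at 59.3 and 56.2 TPM in shPHF8, against 43.0 and 40.6 TPM in shControl libraries. CSNK2A1, a catalytic subunit of casein kinase 2, was at 111.1 and 108.5 TPM in shPHF8, against 132.1 and 130.4 TPM in shControl libraries. In PRKAA1 and CSNK2A1 the groups did not overlap, with log2 fold changes of 0.46 ± 0.10 and -0.26 ± 0.07 (SE). CSNK2B, the regulatory subunit of casein kinase 2, was at 673.5 and 362.3 TPM in shPHF8, against 347.9 and 369.6 TPM in shControl libraries, and overlapped; its log2 fold change of 0.46 ± 0.32 (SE) was 0.015 without shPHF8 replicate 1. The casein kinases that phosphorylate PER proteins overlapped between the groups: CSNK1D was at 10.5 and 24.5 TPM in shPHF8, against 14.3 and 22.6 TPM in shControl libraries, and CSNK1E at 42.5 and 38.1 TPM, against 37.2 and 50.4 TPM.

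All 12 cofactors were tested. HDAC3, the deacetylase that REV-ERB receptors recruit through NCOR1, was at 80.9 and 67.2 TPM in shPHF8 libraries, against 47.7 and 33.0 TPM in shControl libraries. The log2 fold change was 0.88 ± 0.22 (SE) at a limma Benjamini-Hochberg adjusted p of 0.145, and the shControl libraries differed from each other by slightly more than the gap between the groups. NCOR1 was at 70.6 and 68.1 TPM in shPHF8, against 77.9 and 70.7 TPM in shControl libraries. KAT2B, an acetyltransferase coactivator, was at 35.4 and 34.2 TPM in shPHF8, against 28.0 and 23.6 TPM in shControl libraries. CREBBP, an acetyltransferase, was at 31.8 and 29.7 TPM in shPHF8, against 29.01 and 22.71 TPM in shControl libraries, and its log2 fold change of 0.25 ± 0.16 (SE) was 0.0811 without shControl replicate 2. NONO, an RNA-binding partner of PER proteins, was at 251.2 and 323.5 TPM in shPHF8, against 254.8 and 226.6 TPM in shControl libraries, and overlapped. Its log2 fold change of 0.25 ± 0.15 (SE) was 0.0635 without shPHF8 replicate 2. KDM5A, a histone demethylase that acts with CLOCK-BMAL1, was at 27.6 and 26.9 TPM in shPHF8, against 30.1 and 25.3 TPM in shControl libraries, and SIRT1, a deacetylase that opposes CLOCK, at 56.7 and 56.0 TPM, against 57.0 and 54.0 TPM. Both overlapped between the groups.

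All 4 output genes were tested. CDKN1A, which encodes the cell cycle inhibitor p21 and is repressed by REV-ERB alpha in mouse liver, was at 30.8 and 32.0 TPM in shPHF8 libraries, against 19.7 and 17.7 TPM in shControl libraries. The log2 fold change was 0.72 ± 0.13 (SE) at a limma Benjamini-Hochberg adjusted p of 0.103. WEE1, a kinase that delays mitosis and is driven by E-boxes, was at 101.3 and 100.6 TPM in shPHF8, against 65.8 and 89.2 TPM in shControl libraries. PPARA, a nuclear receptor, was at 5.14 TPM in shPHF8 replicate 1 and listed at 0 in shPHF8 replicate 2, against 4.13 and 1.58 TPM in shControl libraries. NAMPT, the enzyme of NAD salvage, was at 175.1 and 175.0 TPM in shPHF8, against 180.8 and 167.0 TPM in shControl libraries. Thus CDKN1A was the output gene with the clearest separation, and PPARA and NAMPT overlapped.

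**Figure D5:**
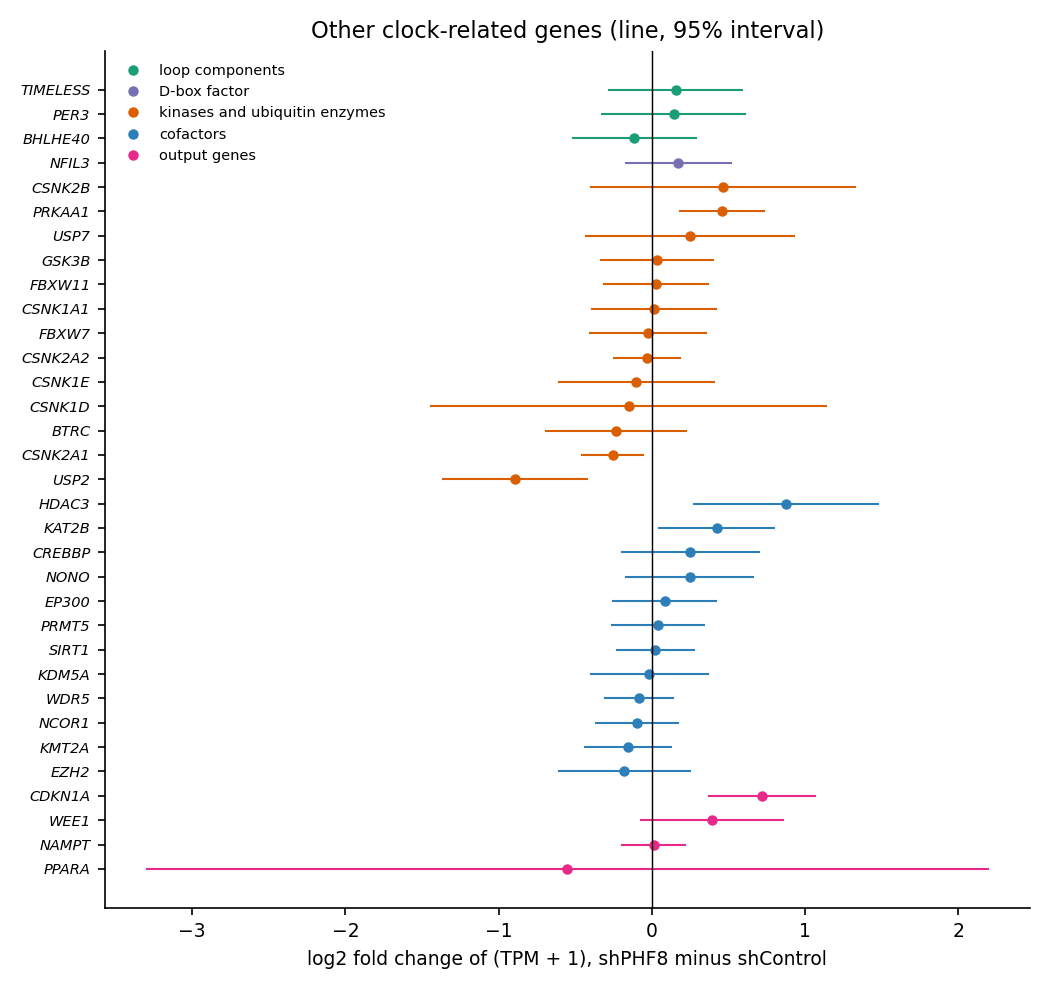
Log2 fold change of (TPM + 1), shPHF8 minus shControl (horizontal axis), for the 33 other clock-related genes tested (vertical axis), coloured by role; dots are estimates and lines 95% intervals from the limma fit across all genes. USP2 lies at -0.89, HDAC3 at 0.88 and CDKN1A at 0.72, and none passed adjustment over all genes.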

How the data were processed

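RNA was sequenced from 4 K562 libraries, grouped by their titles. The authors deposited transcript abundances in TPM, each column summing to 1000000 over 32551 transcripts, per the file headers. A further 4 deposited columns carry no unit, are described here only as signal, and were not used; TPM was a near-constant multiple of them in each library (median 3.1552 to 3.1872). Per the submitters' processing notes, the tools were StringTie 1.2.3 and HISAT2 2.0.4 and the build was hg19. The role of each tool, the annotation and the selection of transcripts is information not given in the sources used here. Estimates per isoform divide shared reads, so they are less certain than sums, and depth is unknown.

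TPM were summed per gene name and fitted as log2(TPM + 1) with limma 3.58.1 in R 4.3.3 (trend, two-sided, Benjamini-Hochberg over the 10972 genes whose mean TPM reached 1; 241 genes were not tested). The fit had 2 residual degrees of freedom and a prior of 2.16. The script was tested on simulated data made like shPHF8 against shControl, again with 10972 genes. It called 21.8% of genes given a true log2 change of 1, 55.5% at a change of 2, 75.8% at 3 and 0.0316% of unchanged genes. In each simulated set 200 genes were changed. The noise was normal on the log2 scale with no floor at 0, and its spread was the estimate for each gene from the 4 libraries. These settings differ from the real data, where no gene was called, so the rates are not the power of the real comparison. Isoform structures and overlaps are from GENCODE release 29 on GRCh38, in which all 12 transcripts were found, and promoter sequences from RefSeq on GRCh38.p14.

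The members, gene lists and tests were chosen with earlier results of these data known. Named were the 10 members, from every list of other clock genes the 4 of lowest p, the 5 genes nearest to DBP, PHF8, and listed genes that share exon bases with a member. Other list members named, NCOR1, KDM5A, SIRT1, CSNK1D and CSNK1E, were added after their values were seen. Some further clock-related genes are not reported here. Plots came from matplotlib 3.10.9, and pandas 2.3.3 under Python 3.11.15 handled tables.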

Additional observations from a re-analysis of the deposited data

How the results depend on the processing

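Of 97 values of the 9 clock genes under 11 alternatives (another pseudocount, 2 other filters, 2 scalings, no trend, the replicate block and 4 sets without a library), 96 kept their direction. The exception was CRY1, which ran from -0.1996 to 0.0588 when 1 library was left out, the highest without shControl replicate 2. The filters, the trend and the replicate block cannot change a fold change here. Leaving out a library or changing the pseudocount cannot turn a gene whose groups do not overlap. The count of kept directions was therefore largely fixed in advance and says little about stability. PER2 was at -0.0006 without shControl replicate 1. Among the other genes named, leaving out 1 library gave TIMELESS -0.0286 to 0.3373 and PPARA -1.8613 to 0.7573, both with the sign turned without shPHF8 replicate 2, and BHLHE40 -0.2916 to 0.0592, turned without shControl replicate 2. NAMPT ran from -0.0466 to 0.0673, turned without shControl replicate 2, and was -0.0026 under quantile normalization. The cause was not tested. CRY2 ran from -0.65 to -0.40 on the log2 scale and NR1D1 from 0.14 to 0.24. With a mean-TPM minimum of 5, DBP and TEF were not tested. Quantile normalization gave 37 called genes (17 higher, 20 lower). None of them was a clock gene named here, but TPM4, the gene nearest to DBP, was called (limma Benjamini-Hochberg adjusted p of 0.0485). Every other alternative that kept all 4 libraries gave 0 called genes. The median of all genes moved by less than the SE of any clock gene under both scalings.

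Leaving out 1 library gave 1495 to 2210 genes with an unadjusted p under 0.05, against 2414 with all 4, with 1578 without shPHF8 replicate 1 and 1495 without shPHF8 replicate 2. It gave 3 to 6 other clock genes past 1.5-fold, against 3 with all 4, the 6 without shPHF8 replicate 2; by the same rule all genes gave 2055 to 2350, against 1674 with all 4. Leaving out a library leaves 1 in its group, whose spread is then taken from the other group. The libraries share only a replicate number: the deviations of same-numbered libraries correlated at -0.03 over genes. With the replicate block 0 genes were called and 1949 had an unadjusted p under 0.05.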
